A study of Mus musculus with 2 samples.

Results

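The insulin-like growth factor (IGF) system was followed through 9 genes in single cells of the developing mouse esophagus, gastroesophageal squamocolumnar junction (GE-SCJ) and stomach: the ligand gene Igf1, the receptor genes Igf1r and Igf2r, and the binding protein genes Igfbp2, Igfbp3, Igfbp4, Igfbp5, Igfbp6 and Igfbp7. The genes were taken as a list by name, with earlier results of these data known, and are 9 of the 19550 genes counted. All 9 had UMIs at every stage.

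IGFs are small secreted factors that resemble insulin. They act through IGF1R, a receptor tyrosine kinase that feeds the PI3K-AKT and MAPK pathways and promotes growth and survival, whereas IGF2R has no kinase and carries IGF2 to lysosomes. The IGF-binding proteins are secreted by the cells around the receptor, hold most IGF outside cells, prolong its life, and release it when proteases such as pappalysin cut them. In many organs, mesenchymal cells are the local source of IGF-I, and epithelial cells are among those that respond to it.

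Tissue came from wild-type C57BL/6 mice, with no transgene and no treatment named, at embryonic day 15 (E15), E19, postnatal day 2 (pup) and 8 weeks (adult). Cells of each region and stage carried a CellPlex tag, an oligonucleotide that marks a cell's sample of origin, and were captured and sequenced together with 10x Genomics 3′ chemistry. Animals were pooled, by the sample labels 6 at E15, 2 at E19, 2 pups and 3 adults, while the study's methods speak of 3 mice combined. Cells carry no mark of the animal, so each group is a single pooled sample, no difference between groups was tested, and every interval given here covers counting error only.

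The table held 7808 cells with 107865155 unique molecular identifiers (UMIs, 1 per captured transcript) and a median of 10424.5 UMIs per cell, over 11 combinations of region and stage (adult stomach cells are not analysed here). Median depth of fibroblasts was 9858 to 10573 UMIs at E15, 9025 to 9172 at E19 and 3859 to 5072.5 in the pup. Of all cells, 255 lay among cells of the other side of birth, where most of their 15 nearest neighbours by expression were prenatal for a postnatal tag or the reverse. They made up 0.298% to 17.5% of a group. Without them, 54 of the 55 member ratios past 2-fold kept their direction and stayed past it, and the values are given beside the main results for the pup. The 9 deposited class labels were joined into 8 classes, with the squamous labels joined. Each cell was also classed by the marker list that held the most of its UMIs, a rule that favours lists of abundant genes. By marker genes, 98.1% of fibroblasts, 97.0% of columnar, 95.5% of endothelial, 87.3% of immune, 86.6% of smooth muscle, 81.8% of squamous and 65.6% of neural cells fell in the class of their label. Only 2.16% of the 139 cells labelled as second stroma did so. In that label, fibroblast markers summed to 10199 CPM (UMIs scaled to a group total of 1000000). The mesothelial markers Upk3b, Wt1, Msln and Lrrn4 summed there to 1841 CPM. Over all its cells, no other class had more than 78.1 CPM of the mesothelial markers. Squamous cells of the pup esophagus had 424 CPM of them. The second stroma is therefore named here by its label.

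A level below is the CPM of a gene, the sum of its UMIs in a group scaled in this way, followed by the exact 95% Poisson interval. Levels are compared for 1 gene between groups and not between genes. A ratio is the log2 of 2 such levels, with 1 UMI added to each sum. Sets of cells split within a class by marker genes were summed over the regions, and the part of region in them was not tested. A member is counted as higher or lower where it differed by at least 2-fold and had at least 100 UMIs over both groups, and the count is set beside the percentage of all genes with at least 100 UMIs that did so.

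The members differed in their leading class. Igf1 was highest in fibroblasts at every stage, Igf1r in neural cells before birth and in smooth muscle of the pup, Igfbp3 in endothelium at every stage, and Igfbp6 in the second stromal label until the adult, which had 1 such cell, where fibroblasts led. Around birth, Igfbp3, Igfbp6 and Igfbp7 were higher in pup than in E15 fibroblasts of all 3 regions. Igfbp5 did not follow a single course, being lower in the pup esophagus and higher in the pup GE-SCJ and stomach.

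**Figure D1:**
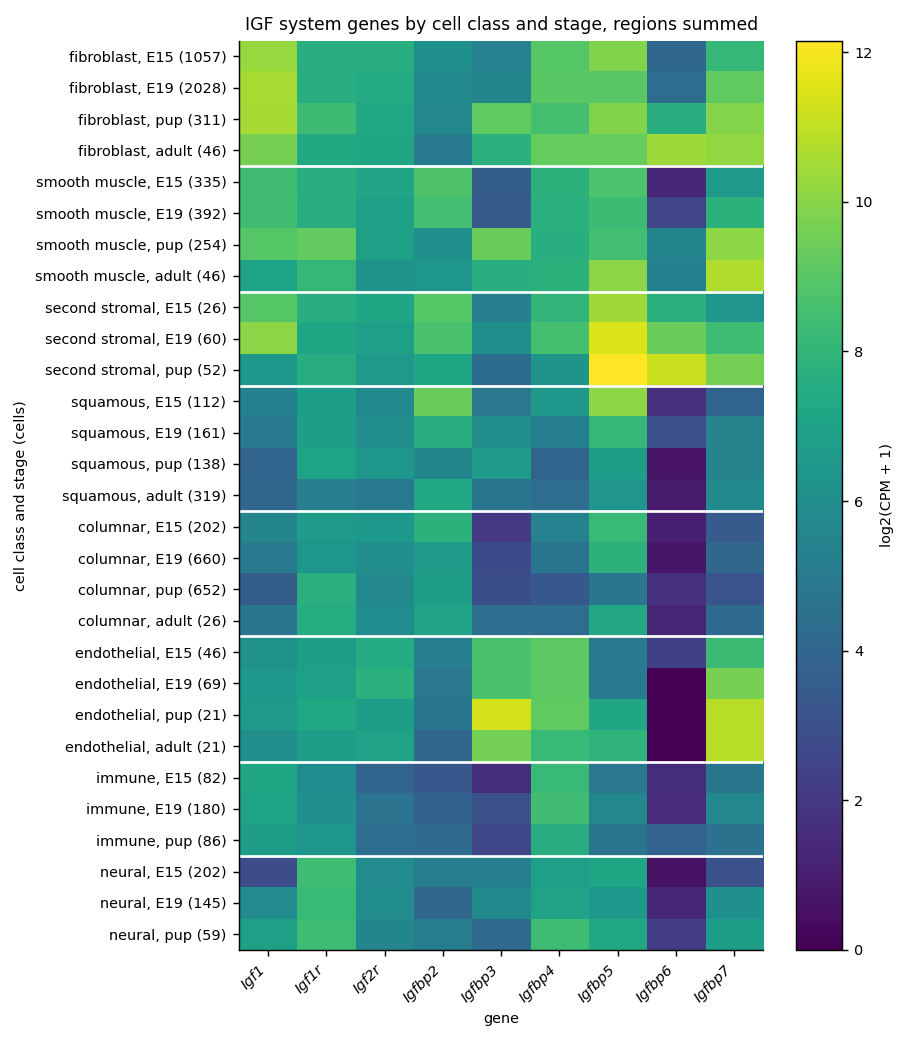
Level of the 9 genes (columns) in each class and stage (rows, number of cells in parentheses), as the colour of log2(CPM + 1) with the regions summed, to be read down a column since levels are not compared between genes. Fibroblasts stood above the other classes for Igf1, endothelium for Igfbp3, and the second stromal label for Igfbp5 and Igfbp6 before and shortly after birth.

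Igf1, on chr10:87858265-87937042 (GRCm38, plus strand), encodes IGF-I, the growth factor that also carries the growth hormone signal. In esophageal fibroblasts its level was 1703 (1662 to 1745) CPM at E15, 2015 (1982 to 2048) at E19, 1828 (1724 to 1937) in the pup and 489 (387 to 609) in the adult. GE-SCJ fibroblasts had 1065 (1032 to 1098), 1256 (1227 to 1285) and 1099.9 (999 to 1209) CPM at E15, E19 and in the pup. Stomach fibroblasts had 947 (916 to 978), 1163 (1137 to 1189) and 1344 (1238 to 1456) CPM. The esophagus was thus highest at all 3 stages, with intervals clear of both other regions. The log2 ratio of stomach over esophagus was -0.85 (-0.91 to -0.79) at E15, -0.79 (-0.83 to -0.75) at E19 and -0.44 (-0.59 to -0.30) in the pup. From pup to adult the esophageal level was lower, with a log2 ratio of -1.89 (-2.23 to -1.56) over 31 adult cells.

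Igf1 reads were also spread over most fibroblasts. In the esophagus, 96.3% of E15 fibroblasts had a UMI. After thinning each cell to 2000 UMIs, which removes differences in depth, the share was 87.5% (83.5 to 90.8). It was 91.0% at E19, then 83.5% in the pup, and 57.1% among adult cells. Columnar epithelium, which should lack the gene and had median depths of 24241 to 29810 UMIs in the stomach, had thinned shares of 2.48%, 3.68% and 2.01% from E15 to the pup. The share in fibroblasts was therefore far above that of background.

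After fibroblasts at E15 (1239 CPM, 1218 to 1259, regions summed), the order of Igf1 ran through the second stromal label (500.04 CPM, 425 to 585), smooth muscle (342 CPM, 325 to 359.8) and immune cells (139.6 CPM, 118 to 164). Then came endothelium (73.7 CPM, 55.8 to 95.5), columnar cells (44.7 CPM, 39.3 to 50.7), squamous cells (39.3 CPM, 30.9 to 49.3) and neural cells (6.28 CPM, 3.44 to 10.5). Only columnar and squamous cells had overlapping intervals. The epithelial levels depended on few cells. Without the 10% of cells richest in fibroblast markers, a choice made after seeing the data, E15 esophageal squamous cells had 4.59 CPM on 4 UMIs. Stomach columnar cells then had 6.20 CPM on 22 UMIs. Neural cells stood higher at the later stages, at 57.7 (45.0 to 72.9) CPM at E19 and 120.4 (82.8 to 169) in the pup. Over all stages, their 118 Igf1 UMIs lay in 35 of 419 cells. Fibroblast markers summed to 1843 CPM in the neural class, beside 1782 CPM of neural markers, and their part in these levels was not tested. The second stromal label stood at 1067 (989 to 1149) CPM at E19 and at 87.5 (60.2 to 123) in the pup. Among immune cells, those with at least 3 UMIs of the complement genes C1qa, C1qb and C1qc, which mark macrophages, had 160.5 CPM (135 to 189.7) of Igf1 at E15 (56 cells, median depth 13618 UMIs) and the others 30.5 CPM (9.92 to 71.3) (26 cells, 4822.5 UMIs). At E19 the intervals of both sets overlapped, with 130.2 CPM (113 to 149) and 137 CPM (104 to 178), and in the pup they were apart again, with 152 CPM (118 to 193) and 5.76 CPM (0.146 to 32.1). In fibroblasts with a UMI of Mki67, a gene of dividing cells, Igf1 was 960.1 CPM (929.9 to 991) at E15 and 1042 CPM (1014 to 1070.0) at E19. It was 1388 CPM (1361 to 1415) and 1663 CPM (1642 to 1684) in the others. Median depths were 13364.5 and 12057 UMIs with and 9397 and 8511.5 UMIs without Mki67. Dividing fibroblasts were the deeper cells in both stages and had the lower level.

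Igf1r, on chr7:67952827-68233668 (plus strand), encodes the signalling receptor for both IGFs. Its levels in fibroblasts of the esophagus were 181 (168 to 195) CPM at E15, 161 (152 to 171) at E19, 282 (242 to 327) in the pup and 99.0 (56.6 to 161) in the adult. In the GE-SCJ they were 193 (179 to 207), 214 (202 to 227) and 373 (315 to 439) CPM. In the stomach they were 233 (218 to 249), 241 (229 to 253) and 327 (276 to 385) CPM, again for E15, E19 and the pup. The pup was above E15 in every region by less than 2-fold. The log2 ratios were 0.64 (0.40 to 0.88), 0.96 (0.70 to 1.22) and 0.50 (0.23 to 0.75) for esophagus, GE-SCJ and stomach. The pup intervals of the 3 regions overlapped each other.

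Smooth muscle departed from fibroblasts in the pup GE-SCJ and stomach, while the intervals of both classes overlapped in the pup esophagus. With regions summed, the Igf1r level of smooth muscle was 201 (188 to 214) CPM at E15, 189 (177 to 202) at E19, 604 (562 to 649) in the pup and 269.6 (212 to 338) in the adult. Fibroblasts over smooth muscle gave log2 ratios of 0.010 (-0.10 to 0.12), 0.11 (0.003 to 0.21) and -0.92 (-1.08 to -0.75) for E15, E19 and the pup, the last -1.02 without cells of the other side of birth. By region the pup values were 279 (191 to 394) in the esophagus (22 cells, 9 of them of the other side of birth), 637 (573 to 706) in the GE-SCJ (119 cells) and 638 (573 to 708) in the stomach (113 cells). Pericyte markers (Rgs5, Kcnj8, Abcc9, Cspg4; pericytes are the contractile cells of small vessels) summed to 1480.1 CPM in pup smooth muscle and to 211 and 294 CPM at E15 and E19. Within the pup label, cells with at least 3 UMIs of these markers had 617 CPM (566 to 672) of Igf1r (165 cells, median depth 4848 UMIs) and cells with fewer had 576 CPM (503 to 657) (89 cells, 4018 UMIs). These intervals overlapped.

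Neural cells held Igf1r at 337 (313 to 362), 293 (263 to 325) and 336 (270.5 to 412) CPM at E15, E19 and in the pup, the highest class before birth. They were followed at E15 by the second stromal label (204 CPM, 157 to 260.3), fibroblasts (202 CPM, 194 to 211) and smooth muscle, whose intervals overlapped. Then came endothelium (111 CPM, 88.9 to 137), squamous (107 CPM, 93.2 to 123) and columnar cells (104 CPM, 95.3 to 113), which overlapped too, and last immune cells (59.0 CPM, 45.0 to 75.9). Immune cells were also the lowest class in the pup, at 83.9 (62.5 to 110.4).

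Among the stages measured, columnar cells of the stomach and GE-SCJ had their highest receptor gene level in the pup, and esophageal squamous cells had their lowest in the adult. Stomach columnar cells had 96.1 (86.6 to 106) CPM of Igf1r at E15, 75.0 (69.6 to 80.7) at E19 and 194 (186 to 202) in the pup, a log2 ratio of pup over E15 of 1.01 (0.85 to 1.17). GE-SCJ columnar cells had 99.7 (83.4 to 118), 85.7 (79.1 to 92.8) and 235 (224 to 245). Esophageal squamous cells had 141 (119 to 167), 115 (99.2 to 132) and 148 (125 to 174) at those stages and 38.3 (31.9 to 45.7) in the adult, so that adult over E15 gave a log2 ratio of -1.88 (-2.24 to -1.52). Squamous cells with a UMI of Trp63, the transcription factor gene of the basal layer, had 168 CPM (145 to 193) in the pup (91 cells, median depth 10924 UMIs) and those without had 59.3 CPM (40.8 to 83.2) (47 cells, 9756 UMIs). The pair of squamous labels in the pup esophagus differed likewise, with 222 (185 to 265) CPM in the larger (56 cells) and 42.3 (24.7 to 67.8) in the smaller (29 cells).

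Igf2r, on chr17:12682406-12769664 (minus strand), encodes the receptor that clears IGF2 and also sorts lysosomal enzymes, and in the mouse it is expressed from the maternal allele. The antisense gene Airn shares 28354 bases with it, and whether the counting used strand is not given in the sources used here. Igf2r stayed within a narrow range in fibroblasts, with 186 (172 to 200.1), 147 (138 to 157), 191 (158 to 229) and 118 (70.8 to 184) CPM in the esophagus from E15 to the adult. In the GE-SCJ it was 178 (165 to 192), 205 (194 to 217) and 137 (103 to 179). In the stomach it was 219 (205 to 235), 184 (174 to 195) and 128 (96.7 to 165), from E15 to the pup. None of the comparisons among fibroblasts, or of fibroblasts with smooth muscle, reached 2-fold. Without the 5 pup esophageal fibroblasts of the other side of birth, which had 854 (572 to 1226) CPM, the pup level there was 153 (123 to 188).

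Endothelium and fibroblasts led the order for Igf2r at E15, at 179.7 (151 to 212) and 195 (187 to 203) CPM with overlapping intervals. Endothelium stood above fibroblasts at E19, at 213 (183 to 247) against 177 (171 to 183). Up to the pup, immune cells were the lowest class, with 14.7 (8.25 to 24.3), 23.5 (17.4 to 31.1) and 19.8 (10.2 to 34.5). Esophageal squamous cells had 55.0 (41.3 to 71.7) CPM at E15, 47.4 (37.6 to 58.9) at E19, 105 (85.5 to 127) in the pup and 30.8 (25.1 to 37.6) in the adult. Stomach columnar cells had 90.6 (81.4 to 101), 62.5 (57.6 to 67.8) and 50.3 (46.2 to 54.5) up to the pup. The log2 ratio of squamous over columnar was negative before birth, at -0.70 (-1.14 to -0.29) and -0.38 (-0.74 to -0.050), and positive in the pup, at 1.07 (0.76 to 1.38), or 0.80 without cells of the other side of birth.

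**Figure D2:**
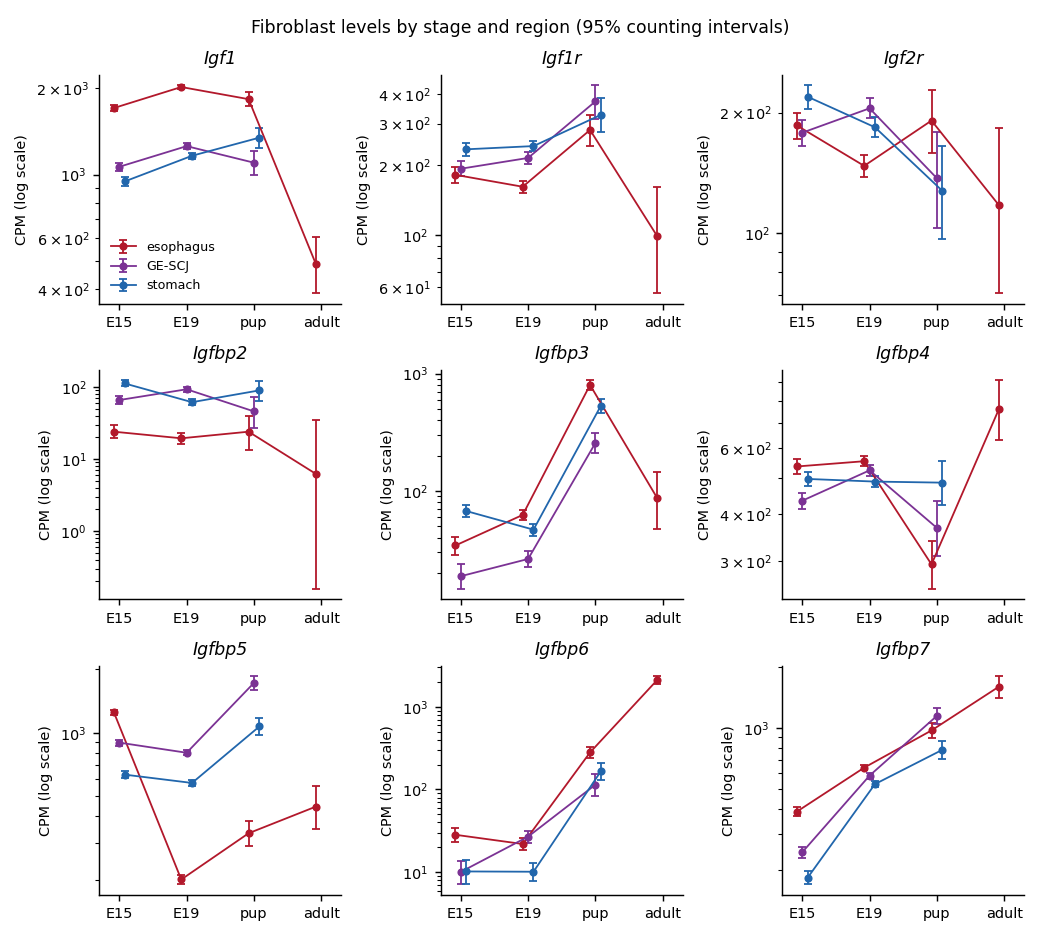
Level of each of the 9 genes in fibroblasts (CPM, log axis, a scale for each gene) against stage, with a line for each region and 95% counting intervals as bars. Igf1 was highest in the esophagus up to the pup, Igfbp3, Igfbp6 and Igfbp7 were higher in the pup than at E15 in each region, and Igfbp5 of the esophagus was below the other regions from E19 to the pup.

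Igfbp2, on chr1:72824503-72852474 (plus strand), encodes a binding protein that also carries an integrin-binding motif. At E15 squamous cells had 635 (599.5 to 672) CPM, followed by the second stromal label (494 CPM, 419 to 578), smooth muscle (427 CPM, 408 to 447) and columnar cells (221 CPM, 209 to 234). Below these stood fibroblasts (67.2 CPM, 62.5 to 72.1), endothelium (37.5 CPM, 25.1 to 53.9), neural cells (35.0 CPM, 27.7 to 43.7) and immune cells (8.85 CPM, 4.04 to 16.8). The intervals of the second stromal label and smooth muscle overlapped, as did those of endothelium and neural cells.

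The GE-SCJ was the high point of Igfbp2 in both epithelia before birth. Squamous cells of the GE-SCJ had 1033 (968 to 1101) CPM at E15, 575 (513 to 643) at E19 and 79.1 (59.3 to 103) in the pup. Those of the esophagus had 263 (232 to 297), 81.9 (68.9 to 96.7) and 11.3 (5.65 to 20.2). Columnar cells of the GE-SCJ had 555 (516 to 597) and 192 (182 to 203) at E15 and E19. Those of the stomach had 117 (106 to 128) and 39.9 (36.0 to 44.1). GE-SCJ smooth muscle had 723 (684 to 764) CPM at E15, above 251 (223 to 282) in the esophagus and 237 (214 to 262) in the stomach. The junction was thus highest at E15 in these 3 classes. In fibroblasts the stomach was highest, at 112 (101 to 123), with 65.8 (57.9 to 74.5) in the GE-SCJ and 23.9 (19.2 to 29.3) in the esophagus.

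Adult esophageal squamous cells had 172 (158 to 187) CPM of Igfbp2, more than in the pup. Adult Trp63-positive squamous cells had 177 CPM (164 to 191) (248 cells, median depth 10810 UMIs) against 78.4 CPM (62.7 to 97.0) in the others (71 cells, 5894 UMIs). The log2 ratio of esophageal squamous over stomach columnar was 1.17 (0.95 to 1.39) at E15, 1.04 (0.75 to 1.33) at E19 and -3.05 (-4.01 to -2.24) in the pup. Without the 10% of cells richest in fibroblast markers the E19 ratio was 0.96, within 2-fold. Pup columnar cells measured 124 (117 to 132) in the GE-SCJ and 102 (96.5 to 108) in the stomach, of which 4 cells with at least 50 UMIs of Igfbp1 held a large part. Without them, a choice made after their values were seen, the levels were 51.8 (46.9 to 56.9) and 85.4 (80.1 to 90.9), and the pup ratio -2.79.

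In the mesenchyme Igfbp2 set smooth muscle apart from fibroblasts before birth. Smooth muscle had 363 (346 to 380.4) CPM at E19, 68.4 (54.6 to 84.6) in the pup and 82.7 (52.4 to 124) in the adult. Fibroblasts over smooth muscle gave a log2 ratio of -2.67 (-2.79 to -2.55) at E15, -2.71 (-2.82 to -2.60) at E19 and -0.46 (-0.93 to 0.008) in the pup. Among cells with fewer than 3 pericyte-marker UMIs, a choice made after seeing the data, the pup ratio was -1.89 (-2.61 to -1.19) on 72 UMIs. Fibroblasts of the stomach exceeded those of the esophagus at E15 and E19, by log2 ratios of 2.21 (1.89 to 2.56) and 1.66 (1.38 to 1.95), with under 100 UMIs in all for the pup pair (1.85, 0.98 to 2.78). Fibroblasts at E15 without a UMI of Bmp4, a signalling ligand gene, had 105 CPM (95 to 116) (395 cells, median depth 8503 UMIs) and those with it 48.6 CPM (43.8 to 53.8) (662 cells, 10873 UMIs).

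**Figure D3:**
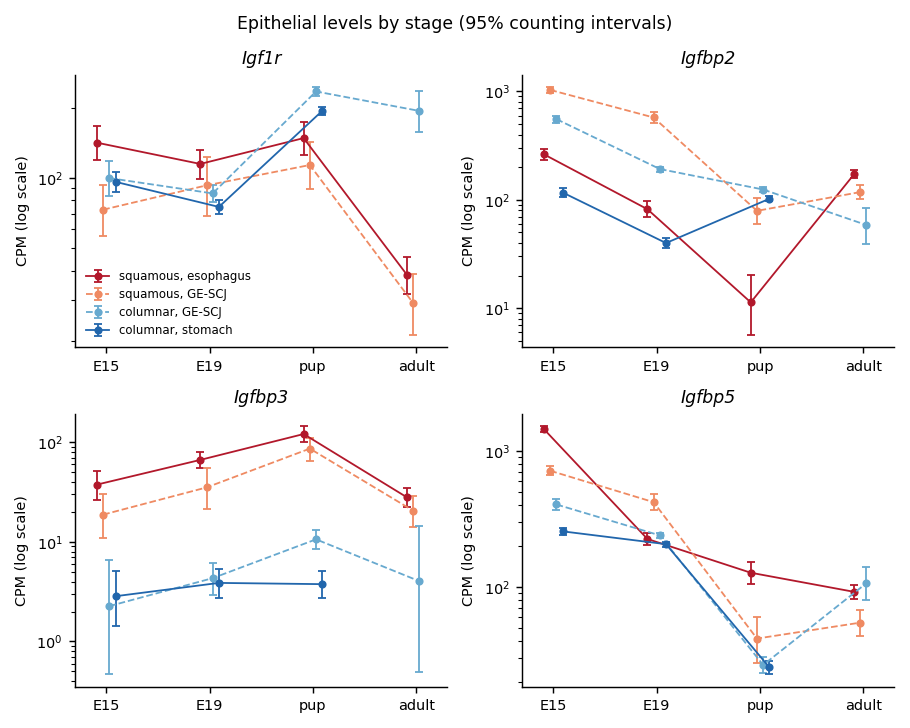
Levels of Igf1r, Igfbp2, Igfbp3 and Igfbp5 in squamous cells of the esophagus and GE-SCJ and columnar cells of the GE-SCJ and stomach (CPM, log axis) against stage, with 95% counting intervals as bars. At E15 and E19 the GE-SCJ lines for Igfbp2 lay above those of the esophagus and stomach, and Igfbp3 was higher in squamous than in columnar cells up to the pup.

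For Igfbp3, Igfbp6 and Igfbp7, the members higher in the pup in fibroblasts of every region, the 250 bases before the RefSeq start are shown (GRCm38.p6). UMI counts give RNA levels and not transcription, and the part of these stretches in the levels was not tested. They span chr11:7213924-7214173 on the minus strand for Igfbp3, chr15:102143936-102144185 on the plus strand for Igfbp6 and chr5:77408046-77408295 on the minus strand for Igfbp7. Capitals mark 3 motifs searched on both strands, the TATANA element, the CCAAT box and the GGGCGG box, which occur in 22.6%, 33.8% and 32.7% of the 32851 promoters of the same length. All 9 members had a promoter in the table.
Igfbp3: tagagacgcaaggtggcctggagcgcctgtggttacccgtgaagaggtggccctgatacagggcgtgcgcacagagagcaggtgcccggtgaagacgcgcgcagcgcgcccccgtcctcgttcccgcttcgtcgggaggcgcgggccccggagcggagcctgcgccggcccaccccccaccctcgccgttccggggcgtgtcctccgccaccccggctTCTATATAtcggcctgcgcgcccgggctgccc
Igfbp6: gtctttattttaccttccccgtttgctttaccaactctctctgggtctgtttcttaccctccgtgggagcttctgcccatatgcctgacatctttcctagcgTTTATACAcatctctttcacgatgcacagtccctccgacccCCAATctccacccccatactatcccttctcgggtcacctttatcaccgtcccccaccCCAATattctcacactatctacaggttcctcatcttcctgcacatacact
Igfbp7: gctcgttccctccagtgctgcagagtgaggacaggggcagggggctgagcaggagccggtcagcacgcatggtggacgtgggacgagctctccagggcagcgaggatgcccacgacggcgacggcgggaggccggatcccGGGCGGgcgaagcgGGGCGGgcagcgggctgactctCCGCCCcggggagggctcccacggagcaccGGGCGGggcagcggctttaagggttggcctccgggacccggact
The Igfbp3 stretch held 2 overlapping matches to TATANA at 32 and 30 bases before the start and was 73.2% G and C. The Igfbp6 stretch held 2 overlapping TATANA matches at 148 and 146 bases, CCAAT at 107 and 50 bases, and was 49.6% G and C, and its RefSeq start lies 176 bases before the GENCODE start. The Igfbp7 stretch held GGGCGG 4 times on either strand, at 110, 96, 74 and 44 bases, and was 74% G and C, against a median of 52.4% over all promoters. No motif of the 3 was shared by all 3 stretches.

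Igfbp3, on chr11:7206086-7213923 (minus strand), encodes the main IGF carrier of blood. Its level in esophageal fibroblasts was 34.4 (28.8 to 40.8) CPM at E15, 62.6 (56.9 to 68.8) at E19, 799 (731 to 873) in the pup and 86.7 (47.4 to 145) in the adult. The GE-SCJ had 18.8 (14.7 to 23.8), 26.4 (22.4 to 31.0) and 257 (209 to 312), at E15, E19 and in the pup. The stomach had 67.6 (59.6 to 76.3), 46.9 (41.8 to 52.4) and 531 (465 to 603). Every pup group was above every prenatal group. Log2 ratios of pup over E15 were 4.53 (4.25 to 4.82) in the esophagus, 3.76 (3.31 to 4.22) in the GE-SCJ and 2.97 (2.71 to 3.23) in the stomach, or 23.1-fold, 13.6-fold and 7.86-fold. They were 4.57, 3.53 and 3.12 without cells of the other side of birth.

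More fibroblasts of the pup had the gene. After thinning to 2000 UMIs, 6.1% (3.82 to 9.18) of esophageal fibroblasts had an Igfbp3 UMI at E15, 7.08% (5.34 to 9.19) at E19 and 49.6% (41.1 to 58.2) in the pup. Unthinned shares were 16.1%, 17.6% and 56.3%. In the pup the thinned share was 22.5% in the GE-SCJ and 38.5% in the stomach. Immune cells, taken as background, had thinned shares of 1.33%, 1.92% and 1.23% at E15, E19 and in the pup, at median depths of 8702 to 13615 UMIs at E15 and 5557 to 8005 in the pup. The 10% of pup esophageal fibroblasts richest in Igfbp3 held 49.8% of its UMIs. Summed over regions, pup fibroblasts with a UMI of Bmp4 had 261 CPM (219.9 to 308) (100 cells, median depth 4997 UMIs). Those without had 753 CPM (698 to 811) (211 cells, 4068 UMIs), and the part of region in this contrast was not tested. Endothelial markers (Pecam1, Cdh5, Kdr, Egfl7) summed to 31.9 CPM in pup and 16.8 CPM in E15 esophageal fibroblasts, and to 3320 CPM in endothelium. Their part in the Igfbp3 levels was not tested.

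With regions summed, smooth muscle too had more Igfbp3 in the pup, from 10.8 (8.02 to 14.3) CPM at E15 and 10.2 (7.54 to 13.5) at E19 to 653 (609 to 699) in the pup. The log2 ratio of fibroblasts over smooth muscle was 1.87 (1.45 to 2.32) at E15, 2.16 (1.75 to 2.60) at E19 and -0.19 (-0.33 to -0.049) in the pup. Pup smooth muscle with fewer than 3 pericyte-marker UMIs had 759 CPM (674 to 851) and the rest 605 CPM (554 to 659.7). Fibroblast markers summed to 3804, 4512 and 9149 CPM in smooth muscle of E15, E19 and the pup, and their part in the pup level was not tested. By region the pup values were 52.3 (19.2 to 114) in the esophagus, 586 (525 to 653) in the GE-SCJ and 844 (769 to 923) in the stomach. The esophageal value stood clear of the others, over 22 cells of which 9 were of the other side of birth. Pup fibroblasts had 799, 257 and 531 CPM in the same order of regions. Smooth muscle was thus below fibroblasts in the esophagus and above them in the GE-SCJ and stomach. In the adult, 0 of 30 esophageal smooth muscle cells had an Igfbp3 UMI, where 3 counts would be 17.5 CPM, and the 16 cells of the GE-SCJ had 524 (396 to 681), with a UMI in 4 cells.

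Endothelium led the order for Igfbp3 at all stages, with 409.9 (366 to 458), 400.3 (358 to 446), 2604 (2319 to 2915) and 775 (572 to 1028) CPM from E15 to the adult, over 46, 69, 21 and 21 cells. Of the 21 pup cells, 8 lay among cells of the other side of birth. At E15 the intervals of fibroblasts (40.4 CPM, 36.8 to 44.2), the second stromal label (38.2 CPM, 19.7 to 66.8), neural (36.8 CPM, 29.3 to 45.7) and squamous cells (28.3 CPM, 21.3 to 36.9) overlapped in that order. Columnar (3.13 CPM, 1.82 to 5.01) and immune cells (1.97 CPM, 0.238 to 7.10) came last. In the pup the order was endothelium, smooth muscle, fibroblasts, squamous cells, the second stromal label, neural, columnar and immune cells. The intervals of smooth muscle and fibroblasts overlapped, as did those of neighbours among the last 4 classes.

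In epithelium, Igfbp3 separated squamous from columnar cells up to the pup. In the adult, with regions summed, squamous cells had 25.6 (21.3 to 30.6) CPM and 26 columnar cells 20.8 (11.6 to 34.3), with overlapping intervals. Esophageal squamous cells had 37.7 (26.5 to 51.9) CPM at E15, 66.7 (55.0 to 80.1) at E19, 121 (100.4 to 145) in the pup and 28.0 (22.5 to 34.5) in the adult. Stomach columnar cells had 2.85 (1.42 to 5.10), 3.88 (2.73 to 5.34) and 3.77 (2.72 to 5.07) at the first 3 stages. Squamous over columnar gave 3.64 (2.67 to 4.71) at E15 on under 100 UMIs, 4.08 (3.54 to 4.65) at E19 and 4.99 (4.48 to 5.52) in the pup. Once the 10% of cells richest in fibroblast-marker UMIs were left out, it was 4.20 at E19 and 5.30 in the pup. In the pup esophagus the larger squamous label had 96.3 (72.6 to 125) CPM, from 55 UMIs in 56 cells, and the smaller 157 (121 to 201), from 63 UMIs in 29 cells. In the smaller label the 10% of cells with the most Igfbp3 held 90.5% of those UMIs, and after thinning 3.45% of its cells had one (0.0873 to 17.8), against 18.5% in the larger.

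Igfbp4, on chr11:99041244-99054392 (plus strand), encodes a binding protein that is cut by pappalysin. Endothelium and fibroblasts led its order before birth with overlapping intervals, at 552 (501 to 607) and 489.8 (477 to 503) CPM at E15 and 538 (489 to 590.1) and 523 (513 to 533) at E19. They were followed at E15 by immune cells (295 CPM, 262 to 330.2), the second stromal label (252 CPM, 199 to 314) and smooth muscle (222 CPM, 208 to 236). Neighbours in this order overlapped, but immune cells and smooth muscle did not. Then came neural (115 CPM, 101 to 129.9), squamous (86.5 CPM, 73.8 to 101) and columnar cells (40.9 CPM, 35.7 to 46.6). Epithelium was the lowest compartment at every stage.

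The level in esophageal fibroblasts was 537 (514 to 560.3) CPM at E15, 554 (537 to 572) at E19, 295 (254 to 340.3) in the pup and 761 (633 to 908) in the adult. Fibroblasts of the GE-SCJ had 435 (414 to 457), 524 (505 to 543) and 368 (311 to 433) up to the pup. Those of the stomach had 497 (475 to 520.0), 489 (472 to 506) and 486 (423 to 555). The lower pup level was thus clearest in the esophagus, with a log2 ratio of pup over E15 of -0.86 (-1.08 to -0.64). Adult over pup gave 1.37 (1.03 to 1.71) there, but -0.81 where cells were classed by marker genes instead of labels.

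Within the immune class, cells with the C1q genes had more Igfbp4 before birth. They had 333 CPM (295 to 374) at E15 and 401 CPM (371 to 433) at E19. The other immune cells had 97.7 CPM (55.9 to 159) and 113 CPM (83.2 to 151). In the pup the values were 198 CPM (159 to 245) and 167 CPM (112 to 240.0), with overlapping intervals. Stomach columnar cells had 38.1 (32.2 to 44.7) CPM at E15 and 9.02 (7.36 to 10.9) in the pup, a log2 ratio of -2.07 (-2.45 to -1.70). Fibroblast markers summed to 367 and 222 CPM in these cells. Leaving out the 10% of cells richest in them gave -2.11.

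Igfbp5, on chr1:72857932-72874884 (minus strand), lies 5457 bases from Igfbp2 with the 3′ ends facing, and encodes a binding protein that attaches to extracellular matrix. Its order over the regions turned between E15 and E19 in fibroblasts. In the esophagus its level was 1248 (1213 to 1284) CPM at E15, 201 (190.4 to 212) at E19, 333 (289 to 381) in the pup and 446 (349 to 561) in the adult. In the GE-SCJ it was 897 (867 to 928), 803 (780.1 to 827) and 1725 (1598 to 1859.6), up to the pup. In the stomach it was 632 (607 to 658), 577 (559 to 596) and 1070.5 (977 to 1171). The esophagus was highest at E15 and lowest at E19 and in the pup, with no overlap of intervals at any of the 3 stages.

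Log2 ratios of stomach over esophagus were accordingly -0.98 (-1.05 to -0.91) at E15, 1.52 (1.43 to 1.61) at E19 and 1.68 (1.44 to 1.92) in the pup. Those of pup over E15 were -1.90 (-2.11 to -1.70) in the esophagus, 0.94 (0.82 to 1.06) in the GE-SCJ and 0.76 (0.62 to 0.90) in the stomach. Without cells of the other side of birth, the last was 0.97. After thinning, 45.9% (40.6 to 51.4) of esophageal fibroblasts had a UMI at E15 and 18.8% (16.0 to 21.8) at E19. Unthinned shares were 56.8% and 33.7%, and thinned shares of immune cells 6.67% and 8.97%. Adult over pup in the esophagus was 0.43 (0.029 to 0.82), and -0.85 once the richest 1% of cells were left out, so no direction is given.

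Fibroblast subsets differed in Igfbp5 as well. Cells with a UMI of Rgs5 had 1558 CPM (1445 to 1678) in the pup (87 cells, median depth 4889 UMIs) and those without had 654 CPM (606 to 706) (224 cells, 4124 UMIs). Cells with a UMI of Pi16, a gene of adventitial fibroblasts, had 1891 CPM (1789 to 1997) at E15 (47 cells, 13106 UMIs) and those without had 865 CPM (847 to 883) (1010 cells, 9964 UMIs). The contrast by Bmp4 turned between stages, with 723 CPM (704 to 742) in positive and 1339 CPM (1302 to 1377) in negative cells at E15, and 1377 CPM (1279.6 to 1479.5) and 671 CPM (619 to 726) in the pup.

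The second stromal label was the class highest in Igfbp5, with 1363 (1237 to 1499), 2850.1 (2722 to 2983) and 4552 (4339.5 to 4773) CPM at E15, E19 and in the pup over 26, 60 and 52 cells. At E15 the classes ranked after it were squamous cells (1100.2 CPM, 1054 to 1148), fibroblasts (926 CPM, 908 to 944), smooth muscle (418 CPM, 399.6 to 438) and columnar cells (287 CPM, 273 to 302). The lowest were neural (145 CPM, 129.6 to 162), endothelial (32.3 CPM, 20.9 to 47.7) and immune cells (28.5 CPM, 19.1 to 40.9), of which only the last pair overlapped. Adult smooth muscle had 1068 (949.6 to 1196), above its pup level of 355 (323 to 389.7).

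Both epithelia had less Igfbp5 in the pup than at E15, and in esophageal squamous cells the larger step lay before birth, between E15 and E19. Esophageal squamous cells went from 1446 (1372 to 1524) CPM at E15 through 226 (204 to 249.5) and 127 (106 to 152) to 92.2 (82.0 to 103) in the adult. Adult over E15 gave a log2 ratio of -3.97 (-4.15 to -3.79). Stomach columnar cells had 257 (241 to 273) at E15, 207 (198 to 216) at E19 and 25.7 (22.8 to 28.8) in the pup, a log2 ratio of pup over E15 of -3.32 (-3.51 to -3.13). With regions summed, columnar cells had 26.2 (24.0 to 28.6) in the pup and more in the adult, at 162 (134 to 194) over 26 cells. Of the 19 adult columnar cells of the GE-SCJ, 10 lay among cells of the other side of birth. Fibroblast markers summed to 1869 CPM in E15 and 516 CPM in adult squamous cells. Without the 10% of cells richest in them the squamous ratio was -4.34.

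Igfbp6, on chr15:102144362-102149511 (plus strand), encodes the binding protein that prefers IGF2 over IGF-I. Esophageal fibroblasts had 28.3 (23.3 to 34.2) CPM at E15, 21.9 (18.6 to 25.7) at E19, 280.3 (240.4 to 325) in the pup and 2117 (1898 to 2353) in the adult. Those of the GE-SCJ had 10.1 (7.13 to 13.8), 26.9 (22.8 to 31.5) and 114 (83.4 to 153), up to the pup. The values of the stomach were 10.2 (7.26 to 14.0), 10.1 (7.85 to 12.9) and 166 (130.1 to 208). The pup was above both prenatal stages in each region, and in the esophagus the adult by label was above the pup.

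The log2 ratio of pup over E15 was 3.3 (2.95 to 3.66) in the esophagus and 4.00 (3.43 to 4.59) in the stomach, and 3.5 (2.85 to 4.15) on under 100 UMIs in the GE-SCJ. In the same order it was 3.3, 4.25 and 3.56 without cells of the other side of birth. Adult over pup in the esophagus was 2.91 (2.65 to 3.18), but 0.16 where cells were classed by marker genes instead of labels, so the adult difference rests on the labels. Thinned shares of esophageal fibroblasts with a UMI were 2.91% (1.40 to 5.28) at E15, 3.81% (2.55 to 5.47) at E19, 27.3% (20.1 to 35.5) in the pup and 96.4% (81.7 to 99.9) in the adult. Unthinned, they were 14.4%, 14.6%, 41.1% and 96.8%. The gene was thus found in nearly all adult cells of that group. Immune cells had thinned shares of 0% (0 to 4.80), 0.641% (0.0162 to 3.52) and 4.94% (1.36 to 12.2) from E15 to the pup. The 15 adult fibroblasts of the GE-SCJ had 205 (131 to 305) CPM, and the 7 of them not on the other side of birth 741 (465 to 1122).

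Before birth, Igfbp6 was higher in Pi16-positive than in other fibroblasts, at 76.7 CPM (57.3 to 101) against 12.4 CPM (10.4 to 14.7) at E15 and 44.5 CPM (35.1 to 55.7) against 16.9 CPM (15.1 to 19) at E19. The E19 sets held 163 and 1865 cells with median depths of 9640 and 9020 UMIs. In the pup these intervals overlapped, at 252 CPM (182 to 341) and 194 CPM (171 to 219.9). Rgs5-positive fibroblasts were low, with 6.75 CPM (4.55 to 9.64) at E15 against 22.3 CPM (18.9 to 26.1) in the others. All these sets were summed over regions, and the part of region was not tested.

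The second stromal label exceeded fibroblasts for Igfbp6 until the pup, with 217 (168 to 275) CPM at E15, 655 (594 to 720.0) at E19 and 2288 (2138 to 2446) in the pup. Fibroblasts had 16.2 (14.0 to 18.7), 19.4 (17.5 to 21.4) and 201 (179 to 225) over all regions. Its mesothelial markers summed to 6.37 CPM in pup and 12.4 CPM in adult esophageal fibroblasts, and to 1841 CPM in the label itself. Their part in the Igfbp6 levels was not tested. Smooth muscle had 1.55 (0.623 to 3.19), 4.78 (3.03 to 7.17), 43.5 (32.6 to 56.7) and 39.5 (19.7 to 70.7) from E15 to the adult. The other 5 classes lay at or below 13.2 (5.69 to 25.9), the immune value in the pup. Endothelium had 3 UMIs at E15 and none later, where 3 counts would be 3.62 CPM at E19.

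**Figure D4:**
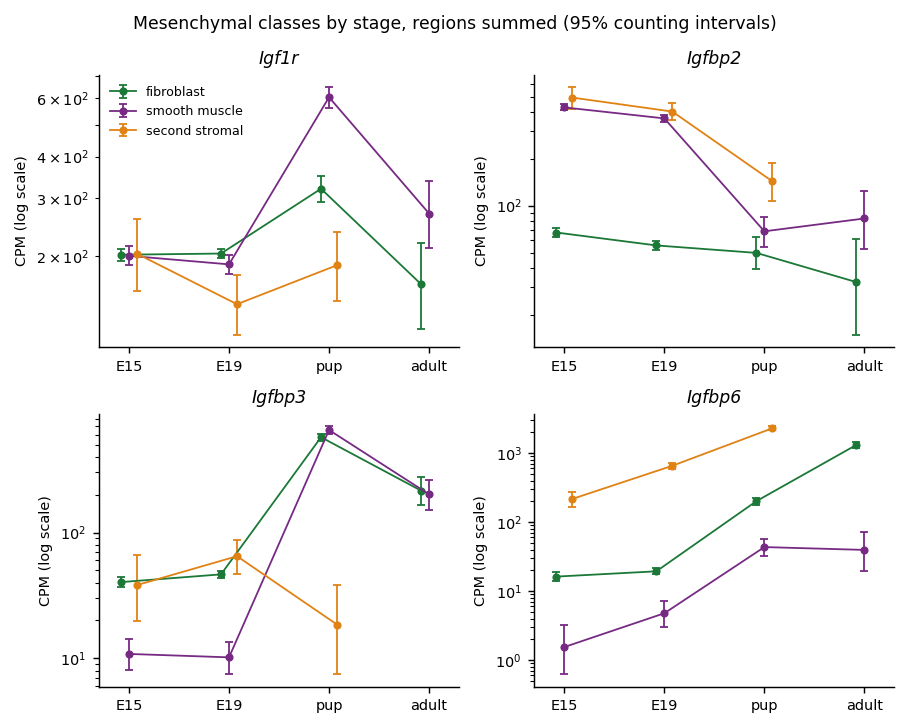
Levels of Igf1r, Igfbp2, Igfbp3 and Igfbp6 in fibroblasts, smooth muscle and the second stromal label (CPM, log axis, regions summed) against stage, with 95% counting intervals as bars. In these sums, smooth muscle of the pup was above fibroblasts for Igf1r, and the second stromal label was above both for Igfbp6. For Igfbp3 in the pup, the sums of smooth muscle and fibroblasts lay close with the second stromal label below. Within regions, pup smooth muscle had less Igfbp3 than fibroblasts in the esophagus and more in the GE-SCJ and stomach. For Igf1r the intervals of both classes overlapped in the pup esophagus.

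Igfbp7, on chr5:77349240-77408041 (minus strand), encodes a secreted protein of the family that binds IGFs weakly and is known from vessel walls. In esophageal fibroblasts it measured 387 (368 to 407) CPM at E15, 638 (619.7 to 657) at E19, 975 (899 to 1055) in the pup and 1603 (1414 to 1811) in the adult, each above the stage before. The GE-SCJ had 244 (228 to 260.1), 583 (563 to 603) and 1151 (1047 to 1262), up to the pup. The stomach had 183 (169 to 197), 529 (512 to 547) and 782 (702 to 868). Up to the pup, the same order of stages held in all regions. With regions summed, the 46 adult fibroblasts had 1144 (1022 to 1277) CPM. Log2 ratios of pup over E15 were 1.33 (1.20 to 1.47), 2.24 (2.08 to 2.40) and 2.10 (1.91 to 2.29) in esophagus, GE-SCJ and stomach. They were 1.38, 2.25 and 2.20 without cells of the other side of birth.

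Smooth muscle followed the same order of stages from a lower start, with 92.3 (83.6 to 102), 219.7 (207 to 233), 1096 (1039 to 1156) and 1675 (1526 to 1834) CPM. The log2 ratio of fibroblasts over smooth muscle was 1.55 (1.40 to 1.70) at E15, 1.41 (1.32 to 1.5) at E19 and -0.19 (-0.30 to -0.078) in the pup. Endothelium had 317 (278 to 359), 816 (756 to 880.2), 1839 (1601 to 2103) and 1825 (1504 to 2194), above fibroblasts at E19 and later. The second stromal label had 79.6 (51.5 to 118), 330.4 (288 to 378) and 785 (698 to 879). The remaining classes were low, from 7.18 (4.11 to 11.7) in E15 neural cells to 109 (73.8 to 156) in pup neural cells.

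Esophageal squamous cells had 21.4 (13.2 to 32.7) CPM of Igfbp7 at E15 and 63.6 (55.1 to 72.9) in the adult, with a log2 ratio of 1.51 (0.87 to 2.22), or 4.08 with classes from marker genes. Adult Trp63-positive cells had 66.1 CPM (58.0 to 74.9) and the others 16.6 CPM (9.84 to 26.3).

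**Figure D5:**
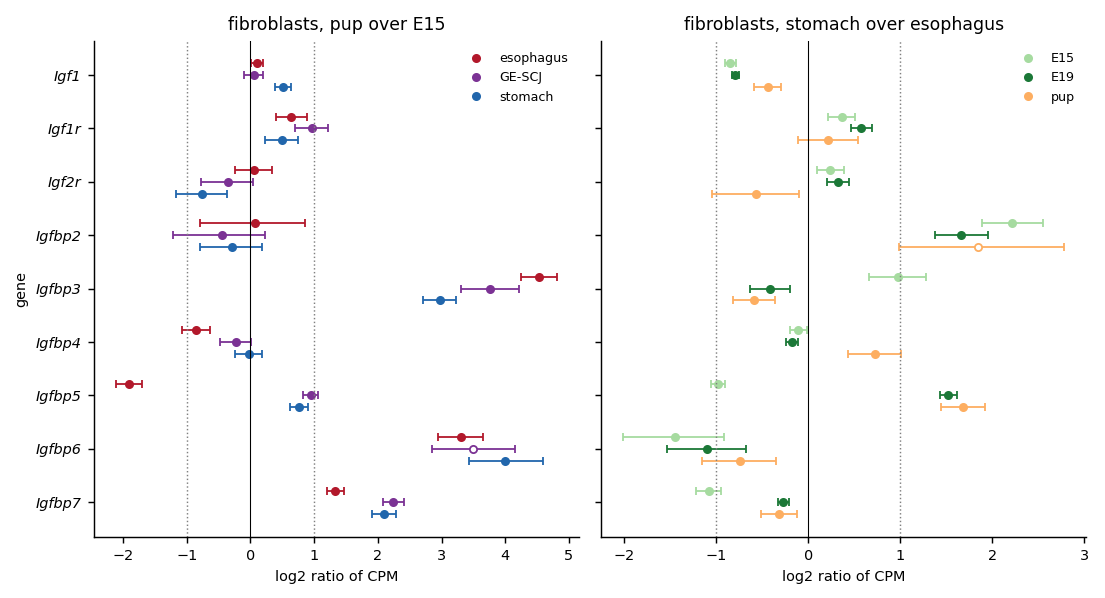
Log2 ratios of the 9 genes in fibroblasts, pup over E15 for each region (left) and stomach over esophagus for each stage (right), with 95% counting intervals as bars, dotted lines at 2-fold and open circles for pairs with under 100 UMIs. Igfbp3, Igfbp6 and Igfbp7 lay above 2-fold in all 3 regions on the left, and Igfbp5 stood on opposite sides of 0 in the esophagus and the other regions.

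From E15 to the pup, most members stayed within 2-fold in fibroblasts. In esophageal fibroblasts, 3 of 9 members were higher in the pup (Igfbp3, Igfbp6 and Igfbp7) and 1 was lower (Igfbp5), beside 8.84% of 6361 genes that were higher and 12.0% that were lower. The median log2 ratio was 0.10 over the members and -0.12 over all genes. In the GE-SCJ, 2 of 8 were higher (Igfbp3 and Igfbp7) and none was lower, beside 7.89% and 12.8% of 6259 genes, with medians of 0.50 and -0.13. In the stomach, 3 of 9 were higher (Igfbp3, Igfbp6 and Igfbp7) and none was lower, beside 6.88% and 10.5% of 6539 genes, with medians of 0.51 and -0.14. The share of members that were higher exceeded the background in each region, but the members were chosen with earlier results of these data known. The regions were also captured and sequenced together, so these shares are a description and not a test. Fibroblast markers summed to 28236 CPM in the pup and 29066 CPM at E15 in the esophagus, to 30072 and 14883 in the GE-SCJ, and to 22711 and 11584 in the stomach. Their part in these ratios was not tested.

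Between stomach and esophagus at E15, which share their groups with the comparisons by stage, 1 of 9 members was higher in the stomach (Igfbp2) and 2 were lower (Igfbp6 and Igfbp7), beside 2.45% and 2.59% of 8450 genes, with medians of -0.11 over members and 0.11 over genes. At E19, 2 of 9 were higher (Igfbp2 and Igfbp5) and 1 was lower (Igfbp6), beside 4.11% and 3.05% of 10009 genes, with medians of -0.18 and 0.14. In the pup, 1 of 8 was higher (Igfbp5) and none was lower, beside 2.08% and 3.33% of 1830 genes, with medians of -0.38 and 0.044. The ratios of Igfbp6 were -1.45 (-2.01 to -0.91), -1.10 (-1.53 to -0.68) and -0.75 (-1.16 to -0.35) at the 3 stages, and of Igfbp7 -1.08 (-1.22 to -0.95), -0.27 (-0.33 to -0.21) and -0.32 (-0.51 to -0.12), all below 0. With classes from marker genes, Igfbp6 had -0.91 at E15 and -0.11 at E19, within 2-fold, as was Igfbp7 at E15, at -0.996.

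Adult over pup in esophageal fibroblasts had 2 of 8 members higher (Igfbp4 and Igfbp6) and 3 lower (Igf1, Igf1r and Igfbp3), beside 7.73% and 13.0% of 1268 genes, with medians of -0.10 over members and -0.057 over genes. Igf1r had a log2 ratio of -1.43 (-2.24 to -0.71) and Igfbp3 of -3.11 (-3.96 to -2.37). With 31 adult cells the number of genes tested was the smallest of all comparisons.

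With regions summed, fibroblasts over smooth muscle separated most members before birth. At E15, 6 of 9 were higher in fibroblasts (Igf1, Igfbp3, Igfbp4, Igfbp5, Igfbp6 and Igfbp7) and 1 was lower (Igfbp2), beside 9.05% and 4.87% of 10451 genes, with medians of 1.15 over members and 0.18 over genes. At E19, 5 of 9 were higher (Igf1, Igfbp3, Igfbp4, Igfbp6 and Igfbp7) and 1 was lower (Igfbp2), beside 12.3% and 5.38% of 11294 genes, with medians of 1.31 and 0.20. In the pup, 3 of 9 were higher (Igf1, Igfbp5 and Igfbp6) and none was lower, beside 6.31% and 5.68% of 4434 genes, with medians of 0.38 and 0.044. Igf1 stayed higher in fibroblasts throughout, with log2 ratios of 1.85 (1.78 to 1.93), 2.10 (2.03 to 2.18) and 1.59 (1.46 to 1.73).

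Esophageal squamous over stomach columnar cells at E15 had 3 of 6 members higher (Igf1, Igfbp2 and Igfbp5) and none lower, beside 6.36% and 8.09% of 6367 genes, with medians of 0.87 over members and 0.013 over genes. The Igf1 ratio of 2.09 (1.56 to 2.63) was -0.18 without the 10% of cells richest in fibroblast markers, so no direction is given for it. Those markers summed to 1869 CPM in the squamous and 367 CPM in the columnar cells. At E19, 3 of 8 were higher (Igfbp2, Igfbp3 and Igfbp7) and none was lower, beside 8.20% and 12.1% of 8788 genes, with medians of 0.72 and -0.070. Without the 10% of cells richest in fibroblast markers only Igfbp3 still counted at E19, since Igfbp2 was within 2-fold at 0.96 and Igfbp7, at 1.58, had 94 UMIs over both groups. In the pup, 4 of 8 were higher (Igf2r, Igfbp3, Igfbp5 and Igfbp7) and 1 was lower (Igfbp2), beside 10.3% and 25.6% of 8557 genes, with medians of 0.92 and -0.28. Igfbp5 was higher in squamous cells at E15, at 2.49 (2.37 to 2.61), and in the pup, at 2.32 (2.01 to 2.63), but not at E19, at 0.13 (-0.031 to 0.29).

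In esophageal squamous cells, adult over E15 had 1 of 8 members higher (Igfbp7) and 3 lower (Igf1, Igf1r and Igfbp5), beside 11.3% and 18.0% of 5293 genes, with medians of -0.90 over members and -0.38 over genes. The Igf1 ratio of -1.64 (-2.16 to -1.12) again turned without the 10% of cells richest in fibroblast markers, to 0.83. In stomach columnar cells, pup over E15 had 1 of 7 higher (Igf1r) and 2 lower (Igfbp4 and Igfbp5), beside 8.97% and 19% of 9333 genes, with medians of -0.63 and -0.36. The background shares of lower genes were large in both epithelial comparisons with age.

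The wider pathway was read from a list of 38 other genes of IGF signalling. In pup over E15 fibroblasts, 9 of 25 list genes with at least 100 UMIs were higher and 2 lower in the esophagus, 7 and 1 of 24 in the GE-SCJ, and 7 and 3 of 25 in the stomach, with median log2 ratios over the list of 0.25, 0.34 and 0.36. Of all genes with that many UMIs, 8.84% and 12.0% were higher and lower in the esophagus, 7.89% and 12.8% in the GE-SCJ and 6.88% and 10.5% in the stomach, with medians of -0.12, -0.13 and -0.14. The pappalysin gene Pappa, whose protease cuts IGF-binding proteins, had the largest log2 ratio among list genes in each region, at 5.81 (5.28 to 6.38), 3.53 (3.03 to 4.04) and 3.61 (3.20 to 4.03). Its level in fibroblasts of all regions was 15.5 (13.3 to 18.0) CPM at E15, 21.7 (19.7 to 23.9) at E19, 334 (305 to 365) in the pup and 96.9 (63.8 to 141) in the adult. Socs2, a brake on growth hormone signalling, had 2.29 (1.84 to 2.75) in the esophagus and 1.29 (0.74 to 1.80) in the stomach. The serine protease gene Htra3 had 1.60 (1.34 to 1.85), 2.76 (2.48 to 3.03) and 2.35 (2.05 to 2.64) in the 3 regions. Stc2, an inhibitor of pappalysin, had 3.19 (2.68 to 3.71) in the GE-SCJ. On the lower side, Igf2bp1, which encodes a binding protein of Igf2 mRNA, had -1.98 (-3.32 to -0.91), -2.0 (-3.64 to -0.75) and -1.43 (-2.51 to -0.53). The other ligand gene Igf2 had -1.12 (-1.37 to -0.88) in the esophagus, and Igf2bp3 and Grb10 -1.30 (-2.13 to -0.58) and -1.20 (-1.46 to -0.96) in the stomach.

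Stomach over esophagus had 1 of 28 list genes higher and none lower at E15 (Pappa, at 1.42, 0.82 to 2.06), 2 higher and 2 lower of 30 at E19, and none of 11 in the pup, with medians of 0.29 at E15 and 0.16 at E19. All genes stood at 2.45% and 2.59% higher and lower at E15, 4.11% and 3.05% at E19 and 2.08% and 3.33% in the pup, with medians of 0.11, 0.14 and 0.044. At E19 these were Ghr, the growth hormone receptor gene, at 1.33 (1.18 to 1.49), Pappa at 1.17 (0.77 to 1.58), the pappalysin inhibitor gene Stc1 at -3.53 (-4.48 to -2.72) and Pappa2 at -1.85 (-2.34 to -1.39). Adult over pup in the esophagus had none higher and 4 of 7 lower, a median of -1.06 beside 7.73% and 13.0% of all genes and -0.057, with Pappa at -3.66 (-5.12 to -2.52), Ghr at -2.67 (-4.57 to -1.27) and Grb10 at -1.41 (-2.11 to -0.78) the 3 farthest.

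Between fibroblasts and smooth muscle, 4 of 29 list genes were higher and 1 lower at E15, 5 and 1 of 32 at E19, and 2 and 0 of 24 in the pup, with medians of 0.40, 0.44 and 0.12. Over all genes the shares higher and lower were 9.05% and 4.87%, 12.3% and 5.38%, and 6.31% and 5.68% at those stages, with medians of 0.18, 0.20 and 0.044. Stc2 was the highest at each stage, with 2.81 (1.90 to 3.90), 2.83 (2.12 to 3.65) and 2.50 (1.71 to 3.39). Htra1 had 1.85 (1.33 to 2.42) and 2.04 (1.69 to 2.41) before birth, Socs2 1.5 (1.06 to 1.97) at E15, and Htra3 2.28 (2.03 to 2.53) at E19 and 2.40 (2.07 to 2.74) in the pup. Grb14, an adapter that binds the insulin receptor, was higher in smooth muscle, with -1.60 (-2.10 to -1.10) at E15 and -2.98 (-3.39 to -2.57) at E19.

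In epithelium, squamous over columnar had 3 of 21 list genes higher and 2 lower at E15, 2 and 4 of 24 at E19, and 4 and 7 of 27 in the pup, with medians of 0.26, -0.094 and -0.18. Beside them, 6.36% and 8.09% of all genes were higher and lower at E15, 8.20% and 12.1% at E19 and 10.3% and 25.6% in the pup, with medians of 0.013, -0.070 and -0.28. Grb14 was lower in squamous cells at each stage, at -2.71 (-4.61 to -1.31), -4.50 (-7.55 to -2.63) and -2.99 (-6.05 to -1.12), and Ghr before birth, at -1.24 (-1.74 to -0.77) and -1.56 (-1.95 to -1.20). On the higher side stood the PI3K subunit gene Pik3r2 before birth, at 1.82 (1.29 to 2.34) and 1.41 (0.91 to 1.88), the insulin receptor substrate gene Irs2 (1.20, 0.72 to 1.67) at E15, and Igf2 at E19 and in the pup, at 1.43 (1.33 to 1.54) and 3.71 (3.54 to 3.89). The remaining named genes were Stat5a at E19 (-3.26, -4.89 to -2.02), and in the pup Pik3cb (3.23, 2.72 to 3.74), Foxo1 (1.82, 1.34 to 2.28), Pappa (-2.39, -4.28 to -1.01) and Igfbp1 (-3.61, -6.66 to -1.74). Of the 285 Igfbp1 UMIs in pup stomach columnar cells 265 came from 1 cell, and without it the squamous over columnar ratio was 0.16 (-2.98 to 2.19) on 21 UMIs, so no direction is given for it.

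With age, adult over E15 squamous cells had none of 17 list genes higher and 9 lower, a median of -1.05, beside 11.3% and 18.0% of all genes and a median of -0.38, led by Igf2 at -5.88 (-6.31 to -5.47), Igf2bp3 at -3.77 (-4.49 to -3.10) and Igf2bp2 at -3.55 (-4.17 to -2.96). Squamous Igf2 stood at 838 (798 to 880.3) CPM at E15, 643 (611 to 677) at E19, 401 (371 to 432) in the pup and 17.4 (13.9 to 21.6) in the adult. Pup over E15 columnar cells had 4 of 26 higher, with Pappa at 4.06 (2.81 to 5.69), Socs2 at 3.31 (2.96 to 3.69) and Igfbp1 at 2.20 (1.56 to 2.92). Without the 1 cell that held 265 of its UMIs the Igfbp1 ratio was -1.56 (-2.50 to -0.62) on 40 UMIs, so no direction is given for it here either. In this comparison 6 list genes were lower and the list median was -0.29, beside 8.97% and 19% of all genes and a median of -0.36, with Igf2 at -3.85 (-3.99 to -3.71), Igf2bp1 at -2.94 (-3.22 to -2.67) and Grb10 at -2.80 (-3.11 to -2.50). Igf2 in columnar cells went from 693 (672 to 716) CPM at E15 to 55.7 (52.4 to 59.1) in the pup.

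Over 54 groups of class, region and stage with at least 20 cells, the genes most like each member were found by Pearson's r of log2(CPM + 10) among 11672 genes with at least 500 UMIs, as a description, since groups share the library and the animals. For Igf1 they were Nrk (r = 0.91), Colec12 (0.89) and Tcf21 (0.88), and for Igf1r Cnn3 (0.83), Abat (0.81) and Zcchc14 (0.81). Igf2r was nearest to Mpzl1 (0.88), Ephb4 (0.87) and its antisense neighbour Airn (0.84). For Igfbp2 the values were lower, with Polr2f (0.73), Ndufb6 (0.68) and Fhdc1 (0.68), as for Igfbp3, with Tmem204 (0.75), Map4k5 (0.73) and Piezo2 (0.70). Igfbp4 ran with Cmtm3 (0.90), Dpy19l1 (0.89) and Colgalt1 (0.88), and Igfbp5 with the glypican gene Gpc3 (0.80), Farp1 (0.79) and Gpx8 (0.77). Igfbp6 was nearest to the complement gene C1ra (0.88), Adgrd1 (0.87) and Medag (0.83), and Igfbp7 to Ehd2 (0.91), Cavin3 (0.90) and the elastin gene Eln (0.89).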

How the data were processed

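The deposited table held a whole-number count of UMIs per gene and cell, with the authors' class label, tag and percent of mitochondrial UMIs for each cell in the deposited cell table. The authors aligned reads to the mouse genome (mm10, GRCm38) and demultiplexed tags with Cell Ranger 6.1.1 and, in Seurat, removed cells outside set ranges of genes, UMIs and mitochondrial share as well as poor-quality cells. No doublet caller was run here, so doublets beyond those filters remain. UMIs were summed per class, region and stage over all 7808 cells and given as CPM with exact Poisson intervals, shares of cells with exact binomial (Clopper-Pearson) intervals, and ratios with intervals from the split of their UMIs given the total, all at 95%. With 1 pooled sample per group no test was possible. For shares, cells were also thinned to 2000 UMIs, leaving out shallower cells. Cells of the other side of birth were found among 15 neighbours in 30 principal components of 2000 variable genes (seed 1). The members and lists were chosen with earlier results of these data known. Named genes were the 9 members, for each the 3 genes most correlated with it, and of the pathway list up to 3 per direction and comparison past 2-fold with at least 100 UMIs. Results on some genes are not reported here. Alternatives were a minimum of 20 UMIs, stricter cell filters, classes from marker genes, centring on the median gene, the mean of per-cell CPM, library sizes without mitochondrial, ribosomal protein and hemoglobin genes, thinning to 5000 UMIs, joined stromal labels, and leaving out cells of the other side of birth or the top 1% of cells. Alternatives added after seeing the data left out cells by pericyte, fibroblast or Igfbp1 UMIs. On data simulated for pup over E15 esophageal fibroblasts, 95% of 100 genes changed by a log2 of 1.5 and 99% of 100 changed by 2 were recovered. Of 6146 unchanged genes, 20 passed. The draws were Poisson counts from the summed E15 profile, without variation between cells or animals, and only genes with many UMIs were changed. These shares therefore cover counting error only and give no error rate for differences between pooled samples. Gene positions came from GENCODE and promoters from RefSeq (GRCm38.p6). The tools were scipy 1.17.1 for intervals, scikit-learn 1.9.0 for neighbours, matplotlib 3.10.9 for figures, and numpy 2.4.6, pandas 2.3.3 and Python 3.11.15.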

Additional observations from a re-analysis of the deposited data

Results flagged for a closer look

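These 5 members had the same comparison pointing in opposite directions in different regions or at different stages, and the differences between those directions were not tested. Igfbp5 in fibroblasts had log2 ratios of pup over E15 of 0.94 in the GE-SCJ and 0.76 in the stomach and of -1.90 in the esophagus. Stomach over esophagus gave -0.98 for E15 but 1.52 for E19 and 1.68 for the pup.

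With regions summed, fibroblasts over smooth muscle gave 1.87 (E15), 2.16 (E19) and -0.19 (pup) for Igfbp3, and 1.55, 1.41 and -0.19 for Igfbp7. In the pup, 151 of 311 fibroblasts and 22 of 254 smooth muscle cells were esophageal, and the part of this mix was not tested. By region, pup Igfbp3 was lower in smooth muscle than in fibroblasts of the esophagus and higher in the GE-SCJ and stomach. Esophageal squamous over stomach columnar cells gave -0.70 (E15), -0.38 (E19) and 1.07 (pup) for Igf2r, and 1.17, 1.04 and -3.05 for Igfbp2.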

How the results depend on the processing

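Of 55 member ratios past 2-fold, all 55 kept their direction and stayed past 2-fold without the top 1% of cells for the gene. The count was 54 with stricter cell filters and 54 without cells of the other side of birth. With mitochondrial, ribosomal protein and hemoglobin genes left out of library sizes it was also 54. It was 53 relative to the median gene, 52 as a mean of per-cell CPM and 48 with classes from marker genes. A minimum of 20 UMIs only widens which genes are counted. It could not change these 55 ratios and is no check on them. The number of members past 2-fold for pup over E15 in GE-SCJ fibroblasts went from 2 to 5 with classes from marker genes and to 4 relative to the median gene. For stomach over esophagus in fibroblasts it went from 3 to 1 at E15 with classes from marker genes and from 1 to 2 in the pup with the minimum of 20 UMIs, and for squamous over columnar at E15 from 3 to 5 with that minimum. At E19 the last comparison went from 3 to 1 without the 10% of cells richest in fibroblast markers, an alternative chosen after seeing the data. Ratios turned for Igfbp4 in adult over pup esophageal fibroblasts, from 1.37 to -0.81 with classes from marker genes, for Igf1 in squamous over columnar cells at E15, from 2.09 to -0.90 with those classes and -0.18 without those 10%, and for Igf1 in adult over E15 squamous cells, from -1.64 to 1.34 and 0.83. The cause was not tested. No paired analysis was possible because each group is 1 pooled sample without replicate numbers, and for the same reason no replicate could be left out. Joining the stromal labels moved 64 of 90 fibroblast levels beyond their intervals, and thinning moved 72 of 90 shares at 2000 UMIs and 59 of 90 at 5000. Depth limits the adult groups and the low levels of Igfbp3 and Igfbp6 before birth.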

Other observations

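Igfbp1, a binding protein gene of liver that was not among the 9, stood out in pup columnar cells, where 4 of 652 cells with at least 50 of its UMIs held 962 of 1000 UMIs. These cells, chosen after their values were seen, had 19231 (18422 to 20065) CPM of Alb, 24955 (24033 to 25903) of Ahsg and 19519.5 (18705 to 20360.0) of Apoa2, genes of plasma proteins made in liver, where the other 648 cells had 3.41 (2.64 to 4.33), 4.53 (3.64 to 5.58) and 15.2 (13.5 to 17.0). They also had 7187 (6696 to 7704) CPM of Igfbp2 and 361 (258 to 492) of Igfbp4, against 71.9 (68.2 to 75.8) and 7.33 (6.18 to 8.63), and 0 UMIs of Igf1r. Igfbp1 lies 3539 bases from Igfbp3 with the 3′ ends facing, and Igfbp3 had 0 UMIs in the 4 cells.

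Among fibroblasts thinned to equal depth, members were also found in the same cells to different degrees, given here as shares with no test. The pairs named are a selection from all pairs of members. In the E15 esophagus, 90.5% of 21 fibroblasts with an Igfbp3 UMI had an Igfbp5 UMI, against 43.0% of the 323 without. These shares were 46.2% and 16.7% in the E19 and 36.2% and 20% in the pup esophagus, but lay closer in the stomach. There they were 56.5% and 45.2% at E15, 42.6% and 41.4% at E19, and 50% and 43.8% in the pup. Of 158 E15 esophageal fibroblasts with Igfbp5, 38.0% had Igfbp7, against 57.5% of the 186 without. Both shares were 68.8% in the E19 esophagus, with 76.9% and 82% in the pup esophagus. In the stomach they were 16.4% and 25.8% at E15, 52.8% and 57.5% at E19, and 72.2% and 64.3% in the pup. In the stomach, Igfbp5 was found in 58.2% of 220 fibroblasts with Igf1 and 26.6% of 139 without at E15, in 50.3% of 485 and 21% of 210 at E19, and in 51.8% of 56 and 31.8% of 22 in the pup. In the esophagus the same shares were 45.2% of 301 and 51.2% of 43 at E15, 19% of 668 and 16.7% of 66 at E19, and 25% of 116 and 43.5% of 23 in the pup.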
